A study of Homo sapiens with 6 samples.

Results

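The transcriptome of fibroblasts that overexpressed wild-type JUN was compared with that of fibroblasts infected with an empty vector. The cells were MRC5, a line of human embryonic lung fibroblasts made immortal with a lentivirus that expresses hTERT. All cells of the comparison carried adenovirus, either without an insert (control) or with FLAG-tagged wild-type JUN (JUN WT). A further library with FLAG-tagged JUN AA, in which both serines that JNK phosphorylates were changed to alanine, stands beside them. Its level is given wherever those of control and JUN WT are both printed. Cells were infected for 2 h and harvested after 3 days of culture. Of the 6 RNA-seq libraries of the series, 2 form the comparison, with 1 library a side. No difference therefore has a replicate check, no p-value is given, and rise, fall, higher and lower describe the values of these libraries only. The promoter that drives JUN in the virus and the number of reads per library were not given in the sources used here. Expression is given as FPKM, a fragment count scaled by exon length and library size, and a change is the difference of log2(FPKM + 1) between JUN WT and control. On this scale the change of a weakly expressed gene looks smaller than its ratio. The comparison covers the 10311 of 25368 gene symbols whose mean over the 3 libraries was at least 1 FPKM. Chemokine, interleukin and other cytokine genes are not described here.

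JUN is a basic leucine zipper protein that pairs with itself or with FOS and ATF proteins to form AP-1, a transcription factor that binds the heptamer TGANTCA in promoters and enhancers. JNK phosphorylates the amino-terminal activation domain of JUN in stressed or stimulated cells. In fibroblasts AP-1 is known for its action on collagenase and other protease genes, on wound responses and on the cell cycle.

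Before other genes, JUN itself was examined. Its level was 25.5 FPKM with the empty vector, 4543 with JUN WT and 291 with JUN AA, so JUN WT held 178 times the level of the control. Its share of all FPKM rose from 0.00517% in the control to 0.911% in JUN WT, and was 0.0475% in JUN AA. Reads of the viral JUN and of the cells' own JUN cannot be told apart in these values. The JUN AA and JUN WT libraries differ in JUN level as well as in the changed serines. Wherever JUN AA is set beside JUN WT below, these differences cannot be told apart. Of the 12 fibroblast markers, all passed the filter, 9 were below 0, 4 were at least 2-fold lower, beside 3.39% of all genes, and 0 higher, with a median change of -0.71. Of these 12, 3 are collagen chains described again with their list. PDGFRB and LUM had the largest falls, with values given further on, and VIM, an intermediate filament of mesenchymal cells, had the largest rise, at 2927 FPKM with JUN WT against 1480.2 with the empty vector and 1591 with JUN AA. Of the defining genes of other cells, EPCAM reached at most 0.0647 FPKM, CDH1 was listed at 0 and PTPRC reached at most 0.0148 FPKM. None of the 8 endothelial markers passed the filter, and of the epithelial, leukocyte and neural or muscle lists 4 members did, among them KRT8, KRT18 and CD68. CD68, a marker of macrophages that other cells also express, was at 32.6 FPKM with the empty vector, 85.7 with JUN WT and 31.1 with JUN AA. TERT was listed at 0 in all 3 libraries, and how reads of the lentiviral hTERT would be counted is not given in the sources used here. The FPKM summed to nearly the same value in both libraries, 494603 in the control and 498514 in JUN WT, and to 613184 in JUN AA.

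Promoters of 4 genes are shown first, chosen for the motifs they hold. They are the promoters with an AP-1 heptamer among the 15 largest rises, and those of the 3 interferon-stimulated genes with the largest rises among promoters that hold an ISRE core, with ISG20 in both sets. Each is the 250 bases before the transcription start from RefSeq (GRCh38.p14), placed on GRCh37 by an exact match found once in the genome. Capitals mark the AP-1 heptamer TGANTCA and the ISRE core, which is the part of the interferon-stimulated response element written as a pair of GAAA with any 2 bases between, on either strand. SERPINB2 (chr18:61554689-61554938, plus strand) holds the heptamer with its first base 102 bases before the start. ISG20 (chr15:89181997-89182246, plus strand) holds both an ISRE core and, 22 bases before the start, the heptamer. OAS3 (chr12:113376029-113376278, plus strand) holds 2 ISRE cores. GBP1 (chr1:89530892-89531141, minus strand) holds 1.
SERPINB2: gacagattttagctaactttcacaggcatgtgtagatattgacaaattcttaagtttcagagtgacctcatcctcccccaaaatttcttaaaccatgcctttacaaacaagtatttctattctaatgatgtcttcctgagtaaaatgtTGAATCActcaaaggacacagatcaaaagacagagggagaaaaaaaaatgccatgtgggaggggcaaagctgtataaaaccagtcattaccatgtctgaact
ISG20: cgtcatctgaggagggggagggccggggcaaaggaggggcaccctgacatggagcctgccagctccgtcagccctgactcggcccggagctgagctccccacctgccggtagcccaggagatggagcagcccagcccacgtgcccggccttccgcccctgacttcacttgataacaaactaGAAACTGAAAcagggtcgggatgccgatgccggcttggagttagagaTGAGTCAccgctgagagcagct
OAS3: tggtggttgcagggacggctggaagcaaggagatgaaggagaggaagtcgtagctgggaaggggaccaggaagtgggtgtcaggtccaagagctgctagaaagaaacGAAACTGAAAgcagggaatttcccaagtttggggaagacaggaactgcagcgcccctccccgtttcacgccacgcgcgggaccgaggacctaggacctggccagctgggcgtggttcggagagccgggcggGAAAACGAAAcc
GBP1: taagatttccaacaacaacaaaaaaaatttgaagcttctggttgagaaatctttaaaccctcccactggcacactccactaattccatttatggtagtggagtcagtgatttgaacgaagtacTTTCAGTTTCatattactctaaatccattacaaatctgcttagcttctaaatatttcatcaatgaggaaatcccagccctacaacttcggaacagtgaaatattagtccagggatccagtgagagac

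The genes of these promoters all had their highest level with JUN WT. SERPINB2 was at 374 FPKM with JUN WT against 21.6 with the empty vector and 226 with JUN AA. ISG20 was at 2.07 FPKM with the empty vector, 35.4 with JUN WT and 0.353 with JUN AA. OAS3, an enzyme that senses double-stranded RNA, was at 22.5 FPKM with JUN WT against 5.66 with the empty vector and 0.0546 with JUN AA. GBP1, an interferon-induced GTPase, was at 14.1 FPKM with the empty vector, 47.99 with JUN WT and 6.96 with JUN AA. In all 3 interferon-stimulated genes the JUN AA value was below the control, whereas SERPINB2 was above it.

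A promoter of 250 bases before to 50 bases after the start was found for 8310 of the genes tested. The AP-1 heptamer was in 6.91% of the 564 promoters of genes at least 2-fold higher, in 3.41% of the 264 of genes at least 2-fold lower and in 4.33% of all genes tested, beside 7.76% of the 27305 promoters of the table. The CRE octamer TGACGTCA, a site of CREB and ATF proteins, was in 1.24%, 4.92% and 3.41% in the same order, and in 1.98% of the table. The ISRE core was in 4.79%, 1.52% and 2.86%, and in 3.65% of the table. The TEAD hexamer GGAATG, which does not overlap the others in its letters, was in 10.8%, 9.09% and 10.9%, and in 14.05% of the table. Of the 15 largest rises, 11 had a promoter in the table and 2 of them, SERPINB2 and ISG20, held the heptamer, while 0 of the 9 promoters found for the 15 largest falls and 0 of 16 collagen promoters did. The median GC content of the promoters was 64.7% in the higher, 69.2% in the lower and 65.7% in all genes tested. In promoters of interferon-stimulated genes, some of which are among the higher genes, it was 54.7%. The part of base composition or of single lists in the motif shares was not tested. A match says only that the letters are there, and distal enhancers were not searched.

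Across all genes the changes were mostly small. Between JUN WT and control 9247 genes, 89.7%, stayed within 2-fold, 714 (6.92%) reached 2-fold upward and 350 (3.39%) 2-fold downward. At 4-fold the counts were 51 and 36. The median gene was 0.15 higher in JUN WT on the log2 scale, with 60.9% of genes above and 39.1% below 0, and the middle 50% of genes lay between -0.22 and 0.53. Relative to that shift the balance of the large changes turns, since higher genes made up 67.1% of the 2-fold changes as measured but 45.5% once changes were centred on the median gene and 49.0% once trends with GC content and transcript length were removed. Of the 714 higher genes, 70 passed the filter only through their level in JUN WT, and of the 350 lower genes 28 passed only through the control. Among genes named below, the former include HAS2, TRAF1, RSAD2, LCE2C, G0S2, DSG2, LAMB3 and ADAMTSL1. The latter include FMOD, RGS5, ADAMTS8 and H3F3A. The filter thus favoured their direction of change, and they are part of the counts of their lists. CHRAC1, a chromatin remodelling subunit, lay just inside the upper threshold at 2.36, 5.72 and 2.16 FPKM in control, JUN WT and JUN AA, and SOX12, a transcription factor, just outside the lower threshold at 26.3, 12.7 and 24.6 FPKM. Whether fewer cells express a gene or cells hold less of its RNA cannot be told apart in bulk RNA.

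**Figure D1:**
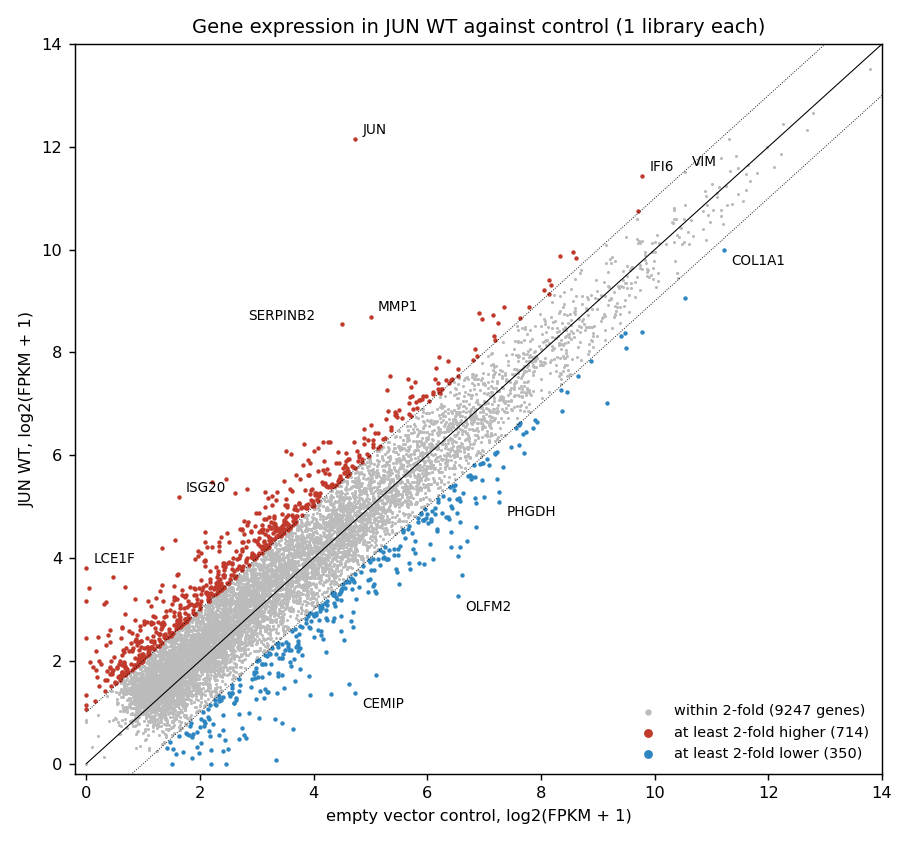
Expression of each of the 10311 genes in the control (x axis) and JUN WT (y axis), both as log2(FPKM + 1), with 1 point a gene, the solid line at equal levels and the dotted lines at 2-fold. JUN stands alone far above the line at 4543 FPKM in JUN WT, while 89.7% of genes lie between the dotted lines.

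At mean levels of 5 FPKM or more, JUN was the first of the 15 largest rises and SERPINB2 the next. SERPINB2 (GRCh37 chromosome 18, 61538926 to 61571122), which encodes an inhibitor of plasminogen activators, changed by 4.06 with the values given above. MMP1 (GRCh37 chromosome 11, 102660132 to 102668891), the interstitial collagenase, was at 31.1 FPKM with the empty vector, 414 with JUN WT and 155 with JUN AA, a change of 3.69. MMP3 (GRCh37 chromosome 11, 102706532 to 102714340), or stromelysin, was at 3.61 FPKM with the empty vector, 43.4 with JUN WT and 3.21 with JUN AA, a change of 3.27. Both MMP genes share exon bases with the noncoding WTAPP1. In MMP3 the JUN AA value lay just under the control, and in MMP1 and SERPINB2 it lay between the control and JUN WT.

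Among the 15 were also genes of lysosomal proteins and of enzymes. LIPA, the lysosomal acid lipase, was at 5.11 FPKM with the empty vector, 37.5 with JUN WT and 12.5 with JUN AA, a change of 2.66, and its gene overlaps IFIT2 and IFIT3. GM2A, the activator protein of ganglioside breakdown, was at 1.95 FPKM with the empty vector, 19.4 with JUN WT and 5.48 with JUN AA, a change of 2.79. CTSZ, a lysosomal cysteine protease whose gene overlaps NELFCD, was at 6.09 FPKM with the empty vector, 39.6 with JUN WT and 4.01 with JUN AA, a change of 2.52. JUN WT held the highest of the 3 values in each, and GM2A and LIPA stood above and CTSZ below the control in JUN AA. PNP, the purine nucleoside phosphorylase, was at 4.49 FPKM with the empty vector, 45.5 with JUN WT and 7.08 with JUN AA, a change of 3.08. ENPP2, the autotaxin that makes lysophosphatidic acid, was at 1.52 FPKM with the empty vector, 17.3 with JUN WT and 6.69 with JUN AA, a change of 2.87. AKR1C1, a steroid and aldehyde reductase with close copies in its family, was at 11.2 FPKM with the empty vector, 63.9 with JUN WT and 35.8 with JUN AA, a change of 2.41. JUN WT was the highest of the 3 libraries in each of them.

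Of the other large rises, ISG20 changed by 3.56 and OAS2, an antiviral enzyme, by 2.42. OAS2 was at 3.24 FPKM with the empty vector, 21.7 with JUN WT and 0 with JUN AA. COMMD1, a protein of copper handling and NF-kB turnover, was at 66.8 FPKM with JUN WT against 10.4 with the empty vector and 33.1 with JUN AA. LCE1F, a cornified envelope protein of the epidermis, was at 0 FPKM with the empty vector, 12.9 with JUN WT and 19.1 with JUN AA. KTI12, which overlaps TXNDC12, was at 7.64 FPKM with JUN WT against 0.234 with the empty vector and 11.8 with JUN AA. LCE1F and KTI12 were the genes of the 15 in which JUN AA held the highest of the 3 values.

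Among the 15 largest falls, CEMIP (GRCh37 chromosome 15, 81071684 to 81244117), which is needed for hyaluronan breakdown and overlaps MESD, was at 25.6 FPKM with the empty vector, 1.57 with JUN WT and 1.13 with JUN AA, a change of -3.37. A2M (GRCh37 chromosome 12, 9220260 to 9268825), the plasma protease inhibitor alpha-2-macroglobulin, which overlaps A2M-AS1, was at 33.1 FPKM with the empty vector, 2.303 with JUN WT and 3.53 with JUN AA, a change of -3.37. MMP11, stromelysin-3, was at 23.5 FPKM with the empty vector, 1.94 with JUN WT and 3.83 with JUN AA, a change of -3.06. All 3 were also far below the control in JUN AA.

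OLFM2 (GRCh37 chromosome 19, 9964394 to 10047191), a secreted olfactomedin protein, was at 91.5 FPKM with the empty vector, 8.56 with JUN WT and 78.2 with JUN AA, a change of -3.27. PRRX2, a homeobox factor of mesenchyme, was at 96.9 FPKM with the empty vector, 11.8 with JUN WT and 107 with JUN AA, a change of -2.94. CARD16, which resembles the caspase-1 recruitment domain and has close copies, was at 115 FPKM with the empty vector, 23.4 with JUN WT and 96.5 with JUN AA, a change of -2.25. In these 3 genes JUN AA stayed near the control while JUN WT stood alone below it. NNMT, which methylates nicotinamide, was at 91.98 FPKM with the empty vector, 15.4 with JUN WT and 37.3 with JUN AA, a change of -2.5. CYGB, a globin of fibroblasts, was at 94.1 FPKM with the empty vector, 17.5 with JUN WT and 43.8 with JUN AA, a change of -2.36. CTXN1, a small membrane protein, was at 103 FPKM with the empty vector, 19.2 with JUN WT and 75.7 with JUN AA, a change of -2.36. JUN AA took a middle place in NNMT, CYGB and CTXN1.

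The remaining falls held UNC5B, a netrin receptor, at 18.7 FPKM with the empty vector, 1.54 with JUN WT and 7.61 with JUN AA, a change of -2.96. SHC2, an adaptor of receptor tyrosine kinases, was at 14.3 FPKM with the empty vector, 1.52 with JUN WT and 5.29 with JUN AA, a change of -2.6. NDRG1, a gene known for its rise in hypoxia, was at 84.7 FPKM with the empty vector, 17.6 with JUN WT and 39.6 with JUN AA, a change of -2.2. C10orf10, which overlaps RASSF4, was at 9.83 FPKM with the empty vector, 0.718 with JUN WT and 4.57 with JUN AA, a change of -2.66. In all 4 genes JUN WT was the lowest of the 3 libraries. DLL4, a Notch ligand, and PHGDH, the first enzyme of serine synthesis, complete the 15 and are given with their pathways.

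**Figure D2:**
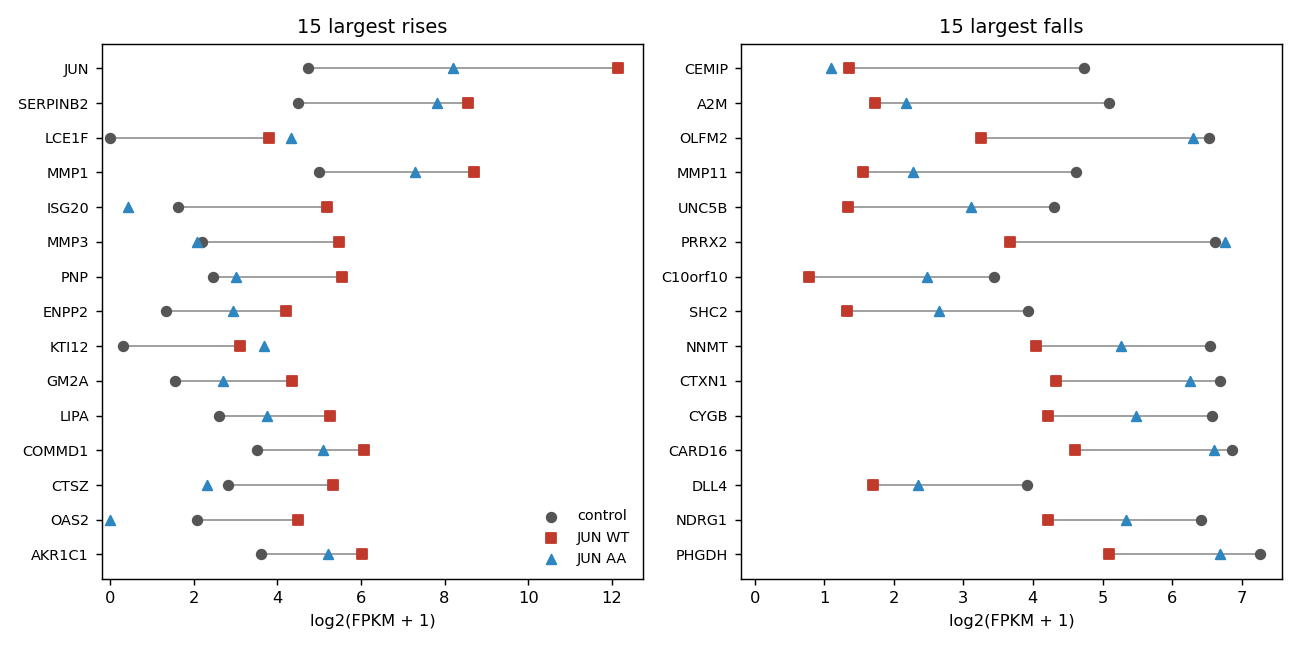
Levels of the 15 genes with the largest rises (left) and the 15 with the largest falls (right) at mean levels of 5 FPKM or more, as log2(FPKM + 1) on the x axis, with circles for control, squares for JUN WT and triangles for JUN AA, 1 library each. A grey line joins control and JUN WT. ISG20 and OAS2 show JUN AA below the control, and OLFM2 and PRRX2 show it beside the control.

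The 57 lists of genes used from here on were pathways and families, and a list is described by how many of its members passed the filter, how many crossed 2-fold and its median change, without a test. The shares over all genes tested were 6.92% at least 2-fold higher, 3.39% at least 2-fold lower, 60.9% above 0 and 39.1% below 0, and the median was 0.15. Members other than the largest rise and fall of a list are examples picked after their values were seen. Together the lists with cell type markers covered 1718 of the 10311 genes that passed. They held 165 of the 714 higher and 103 of the 350 lower genes. Most genes tested, and with them most of the 2-fold changes, thus lay outside any list. The lists held a larger share of the 2-fold changes than of all genes.

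**Figure D3:**
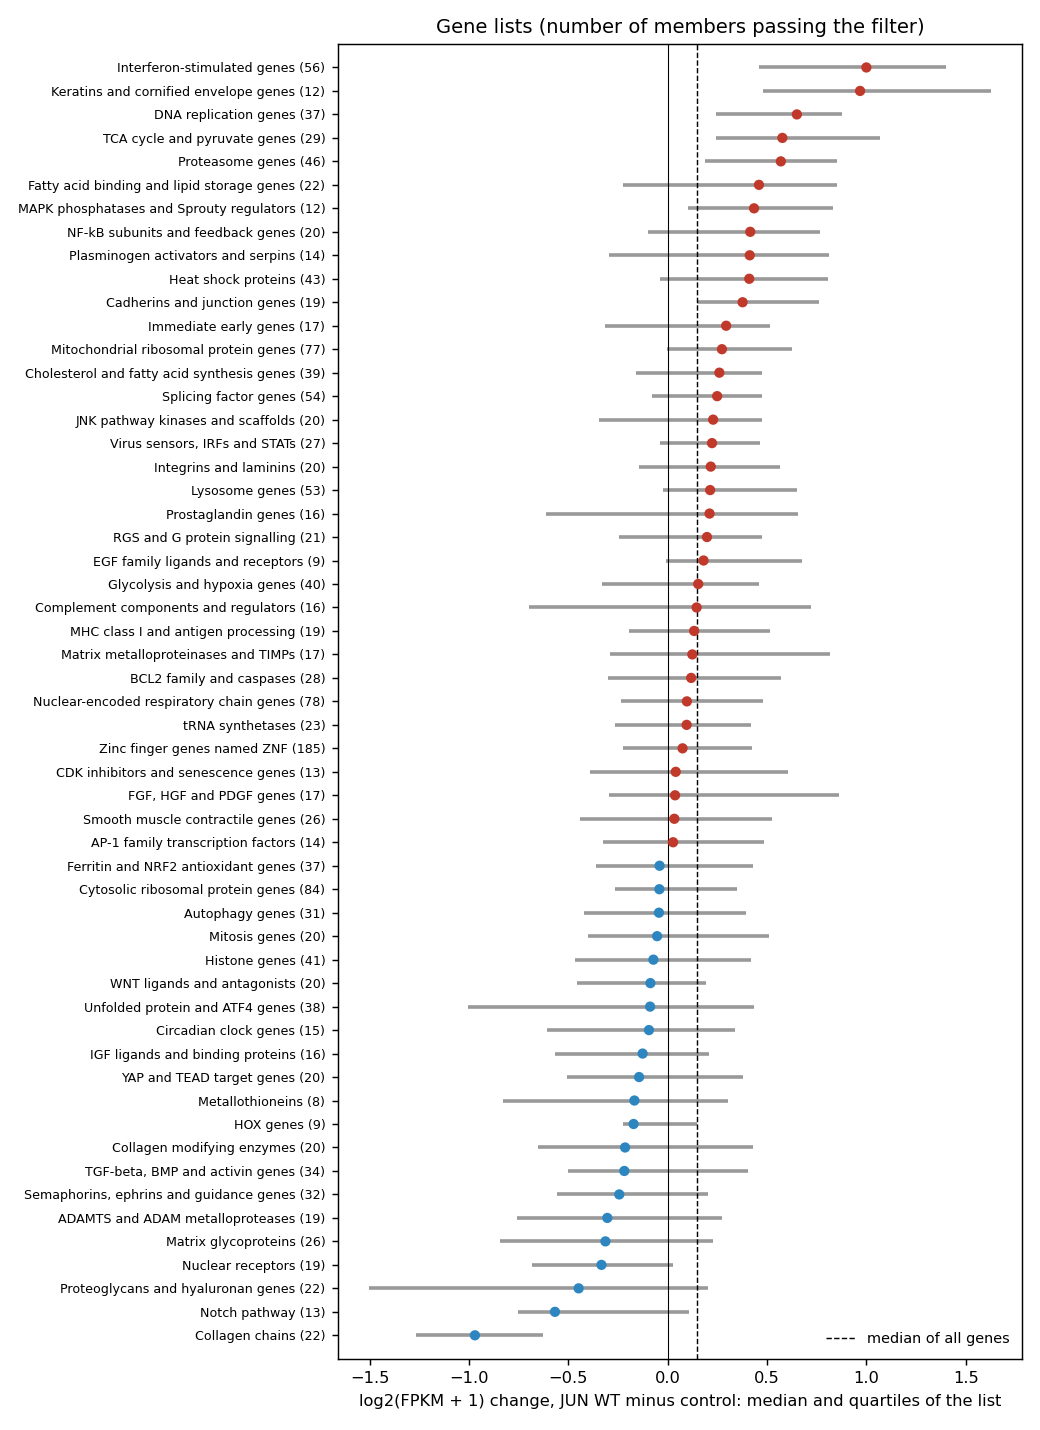
Median (point) and quartiles (bar) of the log2(FPKM + 1) change from control to JUN WT in each of 55 of the 57 gene lists, with the number of members that passed the filter in brackets and the median of all genes, 0.15, as a dashed line. Interferon-stimulated genes lie at the top with a median of 0.999 and collagen chains at the bottom with -0.97.

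Of the 19 genes of the AP-1 family, 14 passed the filter, 3 were at least 2-fold higher and 1 lower. Besides JUN, ATF3, a stress-induced partner of JUN, was at 7.87 FPKM with the empty vector, 38.2 with JUN WT and 6.05 with JUN AA, a change of 2.14. BATF2, a basic leucine zipper factor known from interferon responses, was at 2.01 FPKM with the empty vector, 11.7 with JUN WT and 0.171 with JUN AA, a change of 2.08. JUND, a JUN relative that is expressed broadly, was at 124 FPKM with the empty vector, 45.02 with JUN WT and 83.8 with JUN AA, a change of -1.44. In ATF3 and BATF2 JUN AA thus lay below the control, and JUND was lower than the control in both JUN libraries.

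FOS relatives that passed stayed within 2-fold. FOSL1, the main FOS relative by level here, was at 56.9 FPKM with the empty vector, 54.4 with JUN WT and 26.2 with JUN AA, a change of -0.07. FOSL2 was at 11.3 FPKM with the empty vector, 10.1 with JUN WT and 6.97 with JUN AA, a change of -0.15. JUNB, a JUN relative, was at 56.1 FPKM with the empty vector, 38.2 with JUN WT and 45.1 with JUN AA, a change of -0.54. The other members that passed, ATF2, ATF7, BATF3, JDP2, MAFF, MAFG and MAFK, stayed within 2-fold between JUN WT and control. ATF7 was at 3.38 FPKM with the empty vector, 5.32 with JUN WT and 8.18 with JUN AA. The median of the list was 0.03 and turned to -0.12 when changes were centred on the median gene and to -0.03 with GC and length trends removed.

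Some phosphatases and Sprouty proteins feed back on MAP kinase signalling. Of 12 MAPK phosphatases and Sprouty regulators that passed, 10 lay above 0, beside 60.9% of all genes, and 2 reached 2-fold upward, with a median of 0.43, 0.28 when centred, 0.22 with rescaled FPKM, 0.15 with no filter and -0.18 in JUN AA. SPRY2, an inhibitor of receptor tyrosine kinase signalling, was at 4.05 FPKM with the empty vector, 18.9 with JUN WT and 6.59 with JUN AA. DUSP5, an ERK phosphatase, was at 41.9 FPKM with JUN WT against 20.04 with the empty vector and 18.3 with JUN AA. Both were higher in JUN WT than in the other 2 libraries. Of 20 JNK pathway kinases and scaffolds, 1 (5%) was at least 2-fold higher, beside 6.92% of all genes, and 0 lower. The list median of 0.23 turned to -0.37 among members averaging 5 FPKM or more. The higher gene was MAP2K4, a kinase of JNK itself, at 0.810 FPKM with the empty vector, 3.13 with JUN WT and 2.39 with JUN AA.

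Among immediate early genes, 2 of 17 were at least 2-fold higher and 2 lower. KLF4, a zinc finger factor, was at 6.01 FPKM with JUN WT against 2.32 with the empty vector and 1.96 with JUN AA. EGR1, a growth-induced factor, was at 2.74 FPKM with the empty vector, 6.502 with JUN WT and 0.735 with JUN AA. IER5L was at 11.04 FPKM with JUN WT against 30.7 with the empty vector and 19.9 with JUN AA. BTG2, an antiproliferative gene, was at 25.3 FPKM with the empty vector, 10.5 with JUN WT and 9.92 with JUN AA. Of 19 nuclear receptors, 14 lay below 0 and PPARG, the receptor known from fat cells, was the only one past 2-fold, at 25.1 FPKM with JUN WT against 8.48 with the empty vector and 12.4 with JUN AA. Of 9 HOX genes and 185 genes named ZNF, 0 and 6 passed 2-fold, 3 of the latter in each direction.

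Of the 57 lists, collagen chains had the lowest median. Fibrillar collagens and the network collagens of basement membranes are the main products of fibroblasts. All 22 collagen chains that passed the filter had a lower level with JUN WT than with the empty vector, beside 39.1% of all genes, and 10 were at least 2-fold lower and 0 higher. The median was -0.97, -1.12 when centred, -0.86 with GC and length trends removed and -1.09 in JUN AA. The summed level of the 22 chains was 6690.1, 3440.2 and 3203 FPKM in control, JUN WT and JUN AA.

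By role, COL1A1, the main chain of type I collagen, was at 2388 FPKM with the empty vector, 1014 with JUN WT and 1208 with JUN AA, a change of -1.23. Its partner COL1A2 was at 1309 FPKM with the empty vector, 882 with JUN WT and 871 with JUN AA. COL3A1 was at 189 FPKM with JUN WT against 362 with the empty vector and 163 with JUN AA. COL5A1, which sets fibril diameter, was at 115 FPKM with the empty vector, 32.4 with JUN WT and 49.9 with JUN AA, a change of -1.8. COL5A3, another type V chain, was at 24.1 FPKM with the empty vector, 5.84 with JUN WT and 9.01 with JUN AA, so all fibrillar chains named here were lower in both JUN libraries. Of the basement membrane chains, COL4A1 was at 83.6 FPKM with JUN WT against 204 with the empty vector and 64.1 with JUN AA. COL4A2 was at 329 FPKM with the empty vector, 115 with JUN WT and 76.9 with JUN AA. COL15A1, a chain with a cleavable end like that of COL18A1, had the largest fall of the list at 0.395 FPKM with JUN WT against 5.45 with the empty vector and 2.48 with JUN AA, a change of -2.21. JUN AA was lower than JUN WT in COL1A2, COL3A1, COL4A1 and COL4A2, and lay between JUN WT and the control in COL1A1, COL5A1, COL5A3 and COL15A1.

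Of 20 collagen modifying enzymes, 13 were below 0, 2 were at least 2-fold higher and 1 lower, with a median of -0.22 and -0.36 when centred. LOX, a lysyl oxidase, was at 160.1 FPKM with JUN WT against 51.1 with the empty vector and 91.3 with JUN AA, a change of 1.63. LOXL1 was at 204 FPKM with JUN WT against 91.6 with the empty vector and 193 with JUN AA, a change of 1.15. BMP1, which trims procollagen, was at 33.1 FPKM with JUN WT against 71.7 with the empty vector and 37.2 with JUN AA, a change of -1.09.

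Of 22 proteoglycan and hyaluronan genes that passed, 9 were at least 2-fold lower and 2 higher, with a median of -0.45 and -0.60 when centred. Among the small leucine-rich proteoglycans, which bind collagen fibrils, LUM was at 24.9 FPKM with JUN WT against 94.5 with the empty vector and 240.1 with JUN AA. FMOD was at 7.22 FPKM with the empty vector, 0.836 with JUN WT and 0.758 with JUN AA. BGN was at 31.1 FPKM with JUN WT against 83.9 with the empty vector and 33.03 with JUN AA. In LUM JUN AA lay above the control and JUN WT below it, whereas in FMOD and BGN both JUN libraries were low. HAS2, a hyaluronan synthase, was at 0.0811 FPKM with the empty vector, 2.697 with JUN WT and 0.424 with JUN AA and passed the filter only through its level in JUN WT. SDC1, a cell surface heparan sulfate proteoglycan, was at 30.4 FPKM with JUN WT against 13.7 with the empty vector and 8.42 with JUN AA. GPC4, a glypican, was at 5.69 FPKM with the empty vector, 0.614 with JUN WT and 3.03 with JUN AA.

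Of 26 matrix glycoproteins, 5 were at least 2-fold lower and 2 higher, with a median of -0.31. MFAP2, a protein of elastic microfibrils, was at 14.8 FPKM with JUN WT against 67.1 with the empty vector and 41.5 with JUN AA, a change of -2.11. TNC, tenascin of wounds and tumour stroma, was at 95.1 FPKM with JUN WT against 31.3 with the empty vector and 24.6 with JUN AA, a change of 1.58. FN1, fibronectin, was at 555 FPKM with JUN WT against 531 with the empty vector and 262 with JUN AA and hardly differed between JUN WT and control. IGFBP7 was at 720.3 FPKM with the empty vector, 269 with JUN WT and 238 with JUN AA.

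Matrix proteases moved both ways. Of 17 MMPs and TIMPs, 4 were at least 2-fold higher (MMP1, MMP3, MMP12 and MMP17) and 4 lower (MMP11, MMP14, MMP15 and MMP23B), and the median of 0.12 turned to -0.03 when centred. MMP14, a membrane-bound protease that activates other MMPs, was at 319 FPKM with JUN WT against 677 with the empty vector and 256 with JUN AA, a change of -1.08. TIMP1, the most abundant inhibitor, was at 1515 FPKM with JUN WT against 1595 with the empty vector and 1235 with JUN AA. The higher group held secreted collagenase, stromelysin and elastase together with the membrane-anchored MMP17, and the lower group held the secreted MMP11 and the membrane-bound MMP14 and MMP15. In the plasminogen system PLAU, the urokinase, was at 350.2 FPKM with the empty vector, 149.9 with JUN WT and 125 with JUN AA. Its receptor PLAUR was at 89.03 FPKM with JUN WT against 40.04 with the empty vector and 42.97 with JUN AA. Of 19 ADAMTS and ADAM proteases 2, ADAMTS8 and ADAMTS15, were at least 2-fold lower, and ADAMTSL1 was higher.

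**Figure D4:**
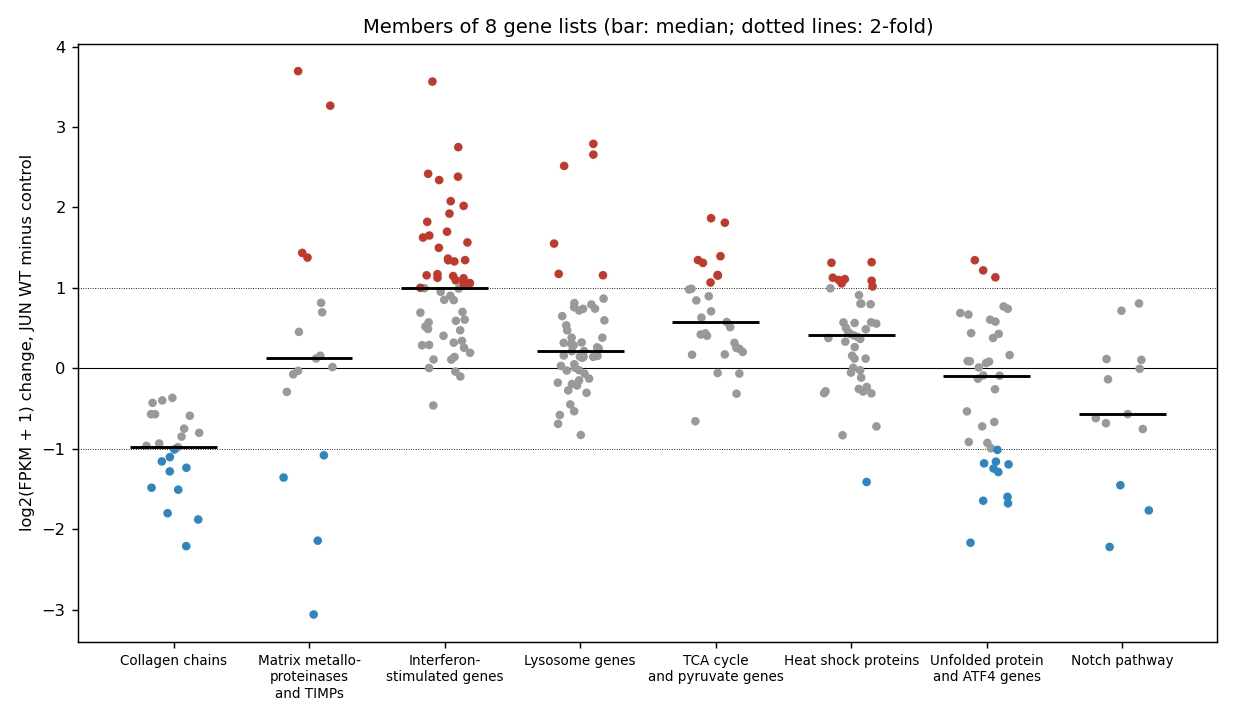
Change from control to JUN WT, in log2(FPKM + 1), of each member of 8 gene lists that passed the filter (points, spread sideways only for legibility), with the median as a bar and 2-fold as dotted lines. All 22 collagen chains lie below 0, 53 of 56 interferon-stimulated genes lie above it, and the MMP, ATF4 and Notch lists spread to 2-fold falls.

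Of 26 smooth muscle contractile genes, 2 lay 2-fold or more above the control and 1 below, with a median of 0.03 that turned to -0.12 when centred and -0.10 with GC and length trends removed. ACTA2, the actin of myofibroblasts, was at 874 FPKM with the empty vector, 336 with JUN WT and 279.6 with JUN AA, a change of -1.38. TAGLN, an actin-binding protein, was at 3573 FPKM with the empty vector, 2858 with JUN WT and 3196 with JUN AA. FLNC, a filamin of muscle, was at 148 FPKM with JUN WT against 67.6 with the empty vector and 83.7 with JUN AA. ACTA2 thus stood low in both JUN libraries while TAGLN differed little.

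Of 20 YAP and TEAD target genes, 3 reached 2-fold upward and 2 downward. CTGF, a matrix-associated growth regulator, was at 93.3 FPKM with the empty vector, 34.8 with JUN WT and 34.3 with JUN AA. CYR61, its relative, was at 96.2 FPKM with JUN WT against 91.8 with the empty vector and 49.8 with JUN AA. NT5E, the ectoenzyme that makes adenosine, was at 38.02 FPKM with the empty vector, 154 with JUN WT and 71.8 with JUN AA, a change of 1.99. F3, tissue factor, was at 59.6 FPKM with the empty vector, 141 with JUN WT and 68.3 with JUN AA. RAC2, a GTPase known from blood cells, was at 18.8 FPKM with JUN WT against 3.24 with the empty vector and 5.297 with JUN AA, a change of 2.22. RAC3 was at 24.7 FPKM with JUN WT against 63.7 with the empty vector and 102 with JUN AA. Of 19 cadherins and junction genes, 15 were above 0, 1 was at least 2-fold higher and 1 lower, with a median of 0.38, 0.23 when centred and 0.13 with GC and length trends removed. JUP, plakoglobin, was at 44.4 FPKM with the empty vector, 10.3 with JUN WT and 16.6 with JUN AA. DSG2, a desmosomal cadherin, was at 5.82 FPKM with JUN WT against 1.01 with the empty vector and 0.901 with JUN AA.

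Keratin and cornified envelope genes belong to epithelia and most of the list was absent, with 12 of 183 passing. Of these 6 were at least 2-fold higher, led by LCE1F and LCE2C, and 2 lower, KRT8 and KRT18, and 10 were above 0. The median was 0.97, 0.82 when centred, 0.47 among members averaging 5 FPKM or more and 0 with no filter. LCE2C was at 0 FPKM with the empty vector, 7.99 with JUN WT and 1.65 with JUN AA. LCE2B was at 3.58 FPKM with JUN WT against 0.129 with the empty vector and 2.98 with JUN AA. KRT18, the keratin of simple epithelia, was at 36.7 FPKM with the empty vector, 15.2 with JUN WT and 9.87 with JUN AA. LCE1F, LCE2B and LCE2C were thus at or near 0 in the control and present in both JUN libraries, but the genes resemble one another closely and lie side by side, so that reads may be divided between them. Of the 6 higher genes all but KRTAP2-3 had at most 1.38 FPKM in the control, the value of KRTAP1-5.

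Of 32 semaphorin, ephrin and other guidance genes, 5 were at least 2-fold lower and 2 higher, with a median of -0.24. The plexin receptor PLXNB2 was at 63.9 FPKM with JUN WT against 145 with the empty vector and 59.5 with JUN AA, and NRP1, a receptor of semaphorins and VEGF, went the other way at 3.24 FPKM with the empty vector, 13.4 with JUN WT and 6.62 with JUN AA. Of 17 FGF, HGF and PDGF genes, 10 were above 0, 2 were at least 2-fold higher and 3 lower, with a median of 0.04 that turned to -0.11 when centred. PDGFRB, the PDGF receptor of fibroblasts and pericytes, was at 13.8 FPKM with JUN WT against 60.4 with the empty vector and 15.8 with JUN AA, a change of -2.06. PDGFRA was at 4.55 FPKM with JUN WT against 11.8 with the empty vector and 5.25 with JUN AA. The growth factor FGF7 was at 10.04 FPKM with the empty vector, 3.41 with JUN WT and 21.8 with JUN AA. FGF5 was at 13.6 FPKM with JUN WT against 4.44 with the empty vector and 7.07 with JUN AA. Both PDGF receptors were low in both JUN libraries, while FGF7 was low in JUN WT only. Of 9 EGF family ligands and receptors, 6 were above 0, 1 was at least 2-fold higher and 1 lower, with a median of 0.18. AREG, amphiregulin, was at 24.9 FPKM with the empty vector, 5.29 with JUN WT and 12.1 with JUN AA. HBEGF was at 5.64 FPKM with JUN WT against 1.51 with the empty vector and 1.36 with JUN AA.

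Of 13 Notch pathway genes, 3 were at least 2-fold lower, 0 higher and 4 above 0, with a median of -0.57, -0.28 with GC and length trends removed. NOTCH3, the receptor of mural cells, was at 64.7 FPKM with the empty vector, 18.3 with JUN WT and 29.7 with JUN AA, a change of -1.76. The ligand DLL4 was at 14.1 FPKM with the empty vector, 2.24 with JUN WT and 4.07 with JUN AA, a change of -2.22. DTX4, a ubiquitin ligase of the pathway, was at 8.21 FPKM with the empty vector, 2.37 with JUN WT and 2.74 with JUN AA. The target HES1 was at 2.34 FPKM with JUN WT against 4.35 with the empty vector and 1.99 with JUN AA. JUN AA stood below the control in each of these 4 genes.

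Of 34 TGF-beta, BMP and activin genes, 3 were at least 2-fold lower and 2 higher. BMP4, a ligand, was at 12.6 FPKM with the empty vector, 3.74 with JUN WT and 4.54 with JUN AA. ID3, a target of BMP signals, was at 56.9 FPKM with JUN WT against 123 with the empty vector and 109.6 with JUN AA. GDF5, a ligand of joint development, was at 8.76 FPKM with the empty vector, 21.5 with JUN WT and 28.6 with JUN AA. Among WNT ligands and antagonists SFRP1, a secreted inhibitor, was the only one of 20 past 2-fold, at 184 FPKM with JUN WT against 39.8 with the empty vector and 45.2 with JUN AA, a change of 2.18. Among IGF genes STC2, a secreted glycoprotein that blocks release of IGF from its binding proteins, was at 43.9 FPKM with JUN WT against 10.1 with the empty vector and 10.1 with JUN AA. IGFBP2 was at 9.16 FPKM with the empty vector, 1.599 with JUN WT and 7.196 with JUN AA. SFRP1 and STC2 were high in JUN WT only. RGS20, which ends G protein signals, was at 17.5 FPKM with JUN WT against 3.64 with the empty vector and 12.5 with JUN AA. RGS5, known from pericytes, was at 3.27 FPKM with the empty vector, 0.735 with JUN WT and 1.07 with JUN AA.

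Of the 57 lists, interferon-stimulated genes held the most members at least 2-fold higher. These genes are switched on by interferon signals and encode proteins that block virus replication. Of 58 genes 56 passed the filter, 53 were above 0, beside 60.9% of all genes, 28 reached 2-fold upward, beside 6.92% of all genes, and 0 lower. The median was 0.999, 0.85 when centred, 0.69 with GC and length trends removed and -1.89 in JUN AA. The summed level was 6719.9, 10406 and 1231 FPKM in control, JUN WT and JUN AA. The control was thus already well above JUN AA in these genes, and all 3 libraries came from cells infected with adenovirus. The part of virus dose in these values was not tested.

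IFI6, a mitochondrial antiviral protein, was at 2751 FPKM with JUN WT against 875 with the empty vector and 13.4 with JUN AA, a change of 1.65. ISG15, a ubiquitin-like modifier, was at 3512 FPKM with JUN WT against 2305 with the empty vector and 335 with JUN AA, a change of 0.61. RSAD2, viperin, was at 9.79 FPKM with JUN WT against 0.604 with the empty vector and 0 with JUN AA, a change of 2.75. MX1, a GTPase that blocks virus entry and transcription, was at 116 FPKM with JUN WT against 44.4 with the empty vector and 0.203 with JUN AA, a change of 1.36. IFIT1, which binds viral RNA ends, was at 90.1 FPKM with JUN WT against 28.5 with the empty vector and 1.84 with JUN AA, a change of 1.63. OASL was at 72.96 FPKM with JUN WT against 13.2 with the empty vector and 0.0364 with JUN AA, a change of 2.38. In each of these genes the order was JUN WT, control, JUN AA from high to low. The ISRE core was in 31 of 46 promoters found for the list, 67.4%, and the AP-1 heptamer in 7, 15.2%.

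Of 27 virus sensors, IRFs and STATs, 3 were at least 2-fold higher and 0 lower, with a median of 0.22. The RNA sensors DDX58 and IFIH1 were at 4.06, 16.6 and 0.752 FPKM and at 3.102, 9.43 and 0.0794 FPKM in control, JUN WT and JUN AA. STAT2 was at 17.4 FPKM with JUN WT against 25.9 with the empty vector and 5.71 with JUN AA, a change of -0.55. IRF7, an amplifier of the response, was at 43.4 FPKM with JUN WT against 30.9 with the empty vector and 0.916 with JUN AA. Of 19 MHC class I and antigen processing genes, PSME2, a proteasome activator subunit, was the only one past 2-fold, at 119 FPKM with the empty vector, 432 with JUN WT and 222 with JUN AA.

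Beyond interferon targets, 4 of 16 complement genes and regulators were at least 2-fold higher and 2 lower. CD46 and CD59, which shield cells from complement, were at 7.74, 25.99 and 13.7 FPKM and at 34.01, 84.9 and 57.996 FPKM, and C1QTNF6 at 11.7, 2.05 and 4.01 FPKM, in control, JUN WT and JUN AA in that order, as for the values that follow. Of 20 NF-kB subunits and feedback genes, 3 were at least 2-fold higher, TRAF1, CYLD and NFKB1. TRAF1, an adaptor of TNF receptors, was at 0.325, 2.697 and 0.601 FPKM and passed the filter only through its level in JUN WT. Of 16 prostaglandin genes 3 were higher and 4 lower. PTGDS, a prostaglandin D synthase, was at 82.5, 25.9 and 23.9 FPKM, and PTGS1, a cyclooxygenase, at 65.7, 25.5 and 22.5 FPKM.

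The unfolded protein and ATF4 list held 2-fold changes in both directions. Of 38 genes that passed, 25 stayed within 2-fold, 10 were at least 2-fold lower beside 3.39% of all genes, and 3 higher, with a median of -0.09. The lower members include enzymes of amino acid synthesis. PHGDH (GRCh37 chromosome 1, 120191034 to 120286841), the first enzyme of serine synthesis, was at 33.2 FPKM with JUN WT against 153 with the empty vector and 102 with JUN AA, a change of -2.17. PSAT1, the next enzyme, was at 16.1 FPKM with JUN WT against 53.8 with the empty vector and 44.8 with JUN AA, a change of -1.68. SHMT2, which turns serine to glycine in mitochondria, was at 86.6 FPKM with JUN WT against 213 with the empty vector and 205 with JUN AA, a change of -1.29. ASNS, asparagine synthetase, was at 12.5 FPKM with JUN WT against 31.02 with the empty vector and 29.9 with JUN AA, a change of -1.24. In all 4 enzymes JUN AA was closer to the control than JUN WT was.

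The other lower members were CBS, TRIB3, DDIT4, SESN2, CEBPB and SLC3A2. TRIB3, a feedback inhibitor of ATF4, was at 22.8 FPKM with JUN WT against 70.9 with the empty vector and 61.5 with JUN AA. ATF4 was at 350.1 FPKM with the empty vector, 185 with JUN WT and 241 with JUN AA, a change of -0.91 that stayed under 2-fold. The 3 higher members were chaperones or folding factors of the endoplasmic reticulum. HSPA5, or BiP, was at 79.3 FPKM with the empty vector, 175 with JUN WT and 81.8 with JUN AA. PDIA6 was at 134 FPKM with JUN WT against 57.05 with the empty vector and 46.3 with JUN AA. MANF was at 28.4 FPKM with the empty vector, 73.6 with JUN WT and 20.7 with JUN AA. These 3 were higher in JUN WT than in both other libraries.

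Of 43 heat shock and chaperonin genes, 31 were above 0, beside 60.9% of all genes, 8 lay 2-fold or more above the control and 1 below, with a median of 0.41, 0.14 with GC and length trends removed. HSPA8, the constitutive HSP70, was at 633 FPKM with JUN WT against 289 with the empty vector and 277 with JUN AA. CCT2, CCT4, CCT6A, CCT8 and TCP1, subunits of the ring that folds actin and tubulin, were the largest set among the 8, with CCT2 at 22.8 FPKM with the empty vector, 58.4 with JUN WT and 42.2 with JUN AA. HSPA2 was at 3.91 FPKM with JUN WT against 12.1 with the empty vector and 2.24 with JUN AA and was the 1 lower gene. For 46 proteasome genes the median was 0.57, 0.29 with the trends removed, with 39 above 0, beside 60.9% of all genes, 6 at least 2-fold higher, beside 6.92%, and 0 lower. PSMA5, a core subunit, was at 11.7 FPKM with the empty vector, 31.4 with JUN WT and 16.6 with JUN AA.

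Of 13 CDK inhibitors and senescence genes, 3 reached 2-fold upward and 1 downward, with a median of 0.04 that turned to -0.11 when centred and -0.30 with GC and length trends removed. CDKN1C, a cell cycle inhibitor, was at 0.980 FPKM with JUN WT against 6.24 with the empty vector and 2.87 with JUN AA. CDKN2C was at 1.26 FPKM with the empty vector, 6.33 with JUN WT and 2.35 with JUN AA. HMGA2, an architectural chromatin protein of embryonic cells, was at 58.8 FPKM with JUN WT against 13.9 with the empty vector and 21.8 with JUN AA, a change of 2.004. Of 28 BCL2 family and caspase genes, 1 was at least 2-fold higher and 3 lower, with a median of 0.12 that turned to -0.03 when centred and -0.10 with the trends removed. BMF, a proapoptotic BCL2 relative, was at 0.473 FPKM with JUN WT against 5.83 with the empty vector and 1.899 with JUN AA, a change of -2.21.

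Among 37 antioxidant and iron genes, 3 reached 2-fold upward and 2 downward. PRDX3, a mitochondrial peroxiredoxin, was at 79.2 FPKM with JUN WT against 28.7 with the empty vector and 37.4 with JUN AA. HMOX1, which degrades haem, was at 82.6 FPKM with the empty vector, 34.3 with JUN WT and 118 with JUN AA. SLC40A1, the iron exporter, was at 2.58 FPKM with JUN WT against 12.6 with the empty vector and 4.52 with JUN AA. In HMOX1 JUN WT lay under and JUN AA above the control.

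Of 29 TCA cycle and pyruvate genes, all passed the filter, 25 were above 0, beside 60.9% of all genes, 8 reached 2-fold upward, beside 6.92% of all genes, and 0 lower, with a median of 0.58, 0.43 when centred, 0.33 with GC and length trends removed and 0.29 in JUN AA. IDH3A, a subunit of isocitrate dehydrogenase, was at 3.18 FPKM with the empty vector, 14.3 with JUN WT and 5.45 with JUN AA, a change of 1.87. MPC1, a subunit of the pyruvate carrier of mitochondria, was at 6.09 FPKM with the empty vector, 23.9 with JUN WT and 15.1 with JUN AA, a change of 1.81. FH, fumarate hydratase, was at 8.46 FPKM with the empty vector, 23.1 with JUN WT and 16.2 with JUN AA. CS, citrate synthase, was at 30.1 FPKM with JUN WT against 22.4 with the empty vector and 13.5 with JUN AA. Of 78 nuclear-encoded respiratory chain genes, 6 (7.69%) reached 2-fold upward, a share near the 6.92% of all genes, and 0 downward, and the median of 0.10 turned to -0.05 when centred and -0.07 with GC and length trends removed.

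Of 40 glycolysis and hypoxia genes, 37 were within 2-fold, a share near the 89.7% of all genes, and NDRG1, given above, had the largest fall. GAPDH was at 6559.7 FPKM with the empty vector, 5149.5 with JUN WT and 6674 with JUN AA. Of 53 lysosome genes, 6 lay 2-fold or more above the control and 0 below, with a median of 0.21 close to that of all genes. Besides LIPA, GM2A and CTSZ, the protease CTSL was at 207 FPKM with JUN WT against 69.8 with the empty vector and 57.2 with JUN AA, a change of 1.55. NPC2, a cholesterol carrier, was at 319 FPKM with JUN WT against 142 with the empty vector and 85.7 with JUN AA. LAMP1, an abundant membrane protein of lysosomes, was at 236 FPKM with the empty vector, 261 with JUN WT and 126 with JUN AA, with hardly any difference between JUN WT and control.

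Of 22 lipid storage genes, 4 reached 2-fold upward and 1 downward. FABP5, a fatty acid binding protein, was at 69.6 FPKM with JUN WT against 15.8 with the empty vector and 67.98 with JUN AA, a change of 2.07. G0S2, an inhibitor of fat breakdown, was at 4.19 FPKM with JUN WT against 0.810 with the empty vector and 0.958 with JUN AA. CD36, a fatty acid receptor, was at 7.07 FPKM with the empty vector, 2.23 with JUN WT and 5.21 with JUN AA. Of 39 cholesterol and fatty acid synthesis genes, 2 (5.13%) lay 2-fold or more above the control, beside 6.92% of all genes, and 0 below. Their median of 0.26 became 0.01 with GC and length trends removed. EBP, a sterol isomerase, was at 48.8 FPKM with JUN WT against 18.3 with the empty vector and 21.97 with JUN AA.

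Of 37 DNA replication genes, 30 were above 0, beside 60.9% of all genes, 4 reached 2-fold upward and 0 downward, with a median of 0.65, 0.37 among members averaging 5 FPKM or more, 0.29 with GC and length trends removed and 0.00 in JUN AA. RPA2, which binds single-stranded DNA, was at 6.14 FPKM with the empty vector, 19.1 with JUN WT and 9.303 with JUN AA. PCNA, the sliding clamp, was at 31.4 FPKM with JUN WT against 23.5 with the empty vector and 18.4 with JUN AA. CCNE1, the cyclin of entry into S phase, was at 1.21 FPKM with the empty vector, 3.76 with JUN WT and 0.953 with JUN AA. Most replication genes were low, at a sum of 200.04, 268 and 281 FPKM in control, JUN WT and JUN AA. Of 57 mitosis genes only 20 passed the filter, their median of -0.05 changed sign in 3 alternatives, and MKI67, the marker of dividing cells, was near 0, at 0.0460 FPKM with JUN WT against 0.0819 with the empty vector and 0.0189 with JUN AA. BUB3, a checkpoint protein, was at 10.6 FPKM with the empty vector, 31.6 with JUN WT and 15.1 with JUN AA.

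Genes of protein synthesis mostly stayed within 2-fold, as did 89.7% of all genes. Of 84 cytosolic ribosomal protein genes, 5 (5.95%) reached 2-fold upward, beside 6.92% of all genes, and 0 downward. Their median was -0.04 beside 0.76 in JUN AA. RPL11 was at 941 FPKM with JUN WT against 319.6 with the empty vector and 923 with JUN AA, although these genes have many pseudogenes that may share reads. Of 77 mitochondrial ribosomal protein genes, 5 (6.49%) lay 2-fold or more above the control, a share near the 6.92% of all genes, and 0 below. Their median of 0.27 became 0.01 with GC and length trends removed. Of 41 histone genes 6 were at least 2-fold lower and 1 higher, led by H3F3A, which was listed at 0 in JUN WT and has close copies.

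The direction of change varied with base composition. Genes were split into 5 bins of equal size by the GC content of their transcript on the GRCh37 annotation, found for 97.2% of the genes. In the lowest bin 7.33% of genes reached 2-fold upward and 0.848% downward, and in the highest bin 1.65% were higher and 8.53% lower. The median change went from 0.29 in the lowest bin through 0.43 in the second and 0.31 in the third to -0.26 in the highest. The median GC content was 45.5% in the higher genes, 59.1% in the lower genes and 49.6% in all genes. Collagen transcripts had a median GC content of 57.1%, interferon-stimulated ones 44.2% and those of the TCA cycle list 45.6%, so the direction of each of these lists went with its composition. The collagen and interferon medians kept most of their size once the trend was removed, and the TCA median 0.33 of 0.58. Whether the trend with GC content came from the cells or from the making of the libraries cannot be told apart with 1 library each.

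**Figure D5:**
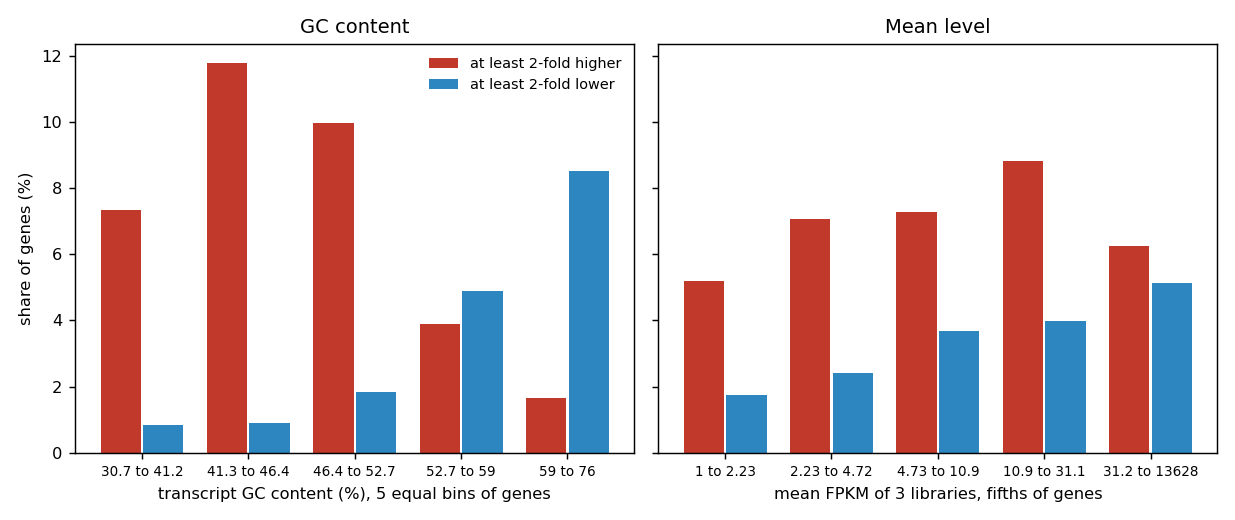
Share of genes at least 2-fold higher (red) and at least 2-fold lower (blue) in JUN WT, in percent, by 5 equal bins of transcript GC content (left, ranges in percent) and of mean level (right, ranges in FPKM). With GC content the balance turns from 7.33% higher and 0.848% lower in the lowest bin to 1.65% higher and 8.53% lower in the highest.

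Transcript length and chromosome showed smaller differences. The share of genes at least 2-fold higher was 9.63% in the bin with the shortest transcripts and 4.14% in the bin with the longest. On chromosome 19, which is rich in GC, 2.60% of genes reached 2-fold upward and 5.21% downward. Among long noncoding genes, LINC00152 was at 81.1 FPKM with the empty vector, 228 with JUN WT and 106 with JUN AA. SNHG12 was at 13.98 FPKM with JUN WT against 4.38 with the empty vector and 1.58 with JUN AA. VIM-AS1, which overlaps VIM, was at 2.91 FPKM with the empty vector, 15.4 with JUN WT and 3.62 with JUN AA. FENDRR, a transcript known from lung mesenchyme, was at 15.1 FPKM with JUN WT against 29.7 with the empty vector and 21.5 with JUN AA, a change of -0.93. PCAT6 was at 2.95 FPKM with JUN WT against 5.63 with the empty vector and 6.62 with JUN AA. SNHG11 was at 14.7 FPKM with the empty vector, 8.34 with JUN WT and 12.6 with JUN AA. Since strand was not given in the sources used here, VIM-AS1 cannot be told apart from VIM.

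Several further genes named here share exon bases with another coding gene on the annotation used, so that their FPKM depend on how reads were divided. They include ACTA2 (with FAS), CYGB (PRCD), DTX4 (MPEG1), FGF5 (CFAP299), IDH3A (ACSBG1 and CIB2), IGFBP7 (POLR2B), JUNB (HOOK2), KRT18 (KRT8), LAMA5 (ADRM1), LOX (SRFBP1), MX1 (TMPRSS2), NPC2 (ISCA2), PDIA6 (ATP6V1C2), PSME2 (RNF31), RSAD2 (CMPK2), SHMT2 (NDUFA4L2), SNHG12 (TRNAU1AP), SNRPA1 (PCSK6), TAGLN (PCSK7) and WARS (WDR25). DDX58, EBP, PTGDS and SERPINB2 share them with coding genes that have no symbol on that annotation.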

How the data were processed

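RNA-seq libraries of MRC5 cells with empty vector, JUN WT or JUN AA, 1 each, were used, with groups taken from the sample labels. The authors mapped reads to hg19 and deposited FPKM per gene. The submitters' processing notes list HISAT2 2.1.0 and StringTie 2.1.1. The annotation, the strand setting and the number of reads were not given in the sources used here, so depth and the precision of single values are unknown. FPKM are scaled by exon length and library, and genes that overlap or have close copies share reads.

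Python 3.11.15, numpy 2.4.6 and pandas 2.3.3 gave the differences of log2(FPKM + 1), and matplotlib 3.10.9 the figures. Of 25370 rows, 25368 symbols were kept, the row with the highest mean for each repeated symbol, and 26 symbols that a spreadsheet had turned into dates were left as they are. Genes averaging 1 FPKM or more over the 3 libraries entered, and 2-fold means a difference of 1. No test was made. Named by rule are JUN, the 15 largest rises and falls at a mean of at least 5 FPKM, the 5 highest genes listed at 0 in the other library, the largest rise and fall of each list, AP-1 members and the 3 noncoding genes at each end, and other genes named are examples chosen after their values were seen. Some genes and lists are not reported here. Genes and lists were chosen with earlier results of these data known. Annotation of GRCh37 matched 98.0% of genes. The procedure was tested on simulated data. Alternatives were 0.1 as the pseudocount, rescaling of FPKM to 1000000 per library, centring on the median gene, other filters, summed rows of a symbol, and removal of GC and length trends in 20 bins. A list median or single gene was counted as moved at over 0.25, a count at over 1.5 times. The deposited table of the JNK inhibitor experiment was not used here.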

Additional observations from a re-analysis of the deposited data

How the results depend on the processing

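The number of genes that reached 2-fold upward depended on the settings. It was 714 as reported, 1229 with a pseudocount of 0.1, 436 with changes centred on the median gene, 458 at a mean of at least 5 FPKM and 335 with GC and length trends removed. The number at least 2-fold lower was 350, and 527 with a pseudocount of 0.1. The other settings stayed within 1.5 times. Of the 335 higher genes with trends removed, 293 were also among the 714, and of the 349 lower genes 239 were among the 350. Of 120 named genes past 2-fold, 102 stayed past it in each setting computed. Of 61 list medians 39 turned to the opposite sign in none, where a median that became 0 was not counted as turned. Collagen chains ranged from -1.12 to -0.41 over the settings, and interferon-stimulated genes from 0.69 to 1.11. No paired analysis was possible because each condition has 1 library. Depth is unknown and no error can be given for any value.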

Other observations

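Genes that were at least 2-fold different and lay side by side among the genes tested formed 12 runs of 3 or more, 11 of higher and 1 of lower genes. The higher runs include MMP1, MMP3 and MMP12 on chromosome 11 (GRCh37, 102660132 to 102745712), GBP3, GBP1 and GBP2 on chromosome 1 (89472362 to 89616139), OAS1, OAS3 and OAS2 on chromosome 12 (113343661 to 113449528), LIPA, IFIT2, IFIT3 and IFIT1 on chromosome 10 (90973326 to 91174314), and SP110, SP140, SP140L and SP100 on chromosome 2 (231029902 to 231410321). Apart from LIPA, which overlaps IFIT2 and IFIT3, these are families of neighbouring genes that resemble one another. Others join genes of unlike function, such as LAMB3, a laminin chain, G0S2, and HSD11B1, which activates cortisol, on chromosome 1 (209788215 to 209908294), and TCP1, MRPL18 and PNLDC1 on chromosome 6 (160199530 to 160241736). The lower run was NXPH4, SHMT2 and NDUFA4L2 on chromosome 12 (57610577 to 57634498), where SHMT2 shares exon bases with NDUFA4L2.

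Some genes were listed at 0 in 1 library of the comparison. Besides the cornified envelope genes LCE1F and LCE2C and a chemokine, the genes listed at 0 in the control with the highest JUN WT values included FAM133DP, a pseudogene, at 0, 2.29 and 0 FPKM in control, JUN WT and JUN AA. Listed at 0 in JUN WT were HNRNPUL2-BSCL2, a readthrough gene, at 4.48, 0 and 0 FPKM, H3F3A at 3.55, 0 and 0.854 FPKM, ATP6V1G2-DDX39B, a readthrough gene, at 2.58, 0 and 0 FPKM, MIR7-1 at 1.83, 0 and 1.83 FPKM and VPREB3 at 1.1998, 0 and 0.584 FPKM. Over all symbols 9467 were listed at 0 with the empty vector, 8496 with JUN WT and 9800 with JUN AA, and no fold is given against 0.

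Further lists had small counts past 2-fold, in some a larger share than in all genes and in others a smaller one. Over all genes tested 6.92% were at least 2-fold higher and 3.39% lower. The shares were 10% and 10% in integrins and laminins, and 3.70% and 0% in splicing factors. Of 20 integrins and laminins, 2 were at least 2-fold higher and 2 lower, with LAMB3 at 0.545, 3.32 and 0.617 FPKM and LAMA5 at 11.95, 3.81 and 5.296 FPKM, in control, JUN WT and JUN AA in that order, as for the values that follow. Of 23 tRNA synthetases, 2 were higher and 1 lower, with FARSB at 7.55, 22.2 and 13.8 FPKM and WARS at 135, 54.8 and 74.2 FPKM. Of 31 autophagy genes, 1 was higher and 1 lower, with GABARAPL1 at 74.998, 28.4 and 36.7 FPKM. Of 54 splicing factor genes, 2 were higher and 0 lower, with SNRPA1 at 12.9, 30.9 and 27.1 FPKM. Of 15 circadian clock genes 2 were lower, with BHLHE40 at 9.85, 4.02 and 5.83 FPKM. Of 8 metallothioneins, which have close copies, 1 was higher and 1 lower, with MT1L at 8.61, 31.9 and 4.85 FPKM.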
